A study of Mus musculus with 6 samples.

Results

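The 47 genes described here encode the enzymes of central carbon metabolism: glycolysis, the entry of pyruvate into mitochondria, glyceroneogenesis, the TCA cycle, the pentose phosphate pathway and the 2 aspartate aminotransferases. They were picked by gene symbol from the 17924 genes of the deposited RNA-seq table, and all 47 were found there. Dermal fibroblasts from the dorsal skin of newborn (P0) C57BL/6J mice had been kept in adipocyte differentiation medium for 14 days, and 3 CTL and 3 Nelfb-/- libraries were sequenced. CTL cells were Nelfb fl/wt or Nelfb wt/wt with Pdgfra-Cre+, and Nelfb-/- cells were Nelfb fl/fl with Pdgfra-Cre+, so both groups carried the Cre transgene. Which of the 2 control genotypes each CTL library had was not given in the sources used here. Cre was driven by the Pdgfra promoter, which is active in fibroblasts and adipocyte precursors, so cells in the culture without Pdgfra activity would keep Nelfb, a subunit of the negative elongation factor that acts on paused RNA polymerase II. The libraries are biological triplicates in the study's words, and whether each came from a separate pup was not stated, so the p-values below measure the spread between these libraries.

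Glycolysis splits glucose into pyruvate in the cytosol, and lactate dehydrogenase interconverts pyruvate and lactate. Pyruvate that enters mitochondria is either oxidised to acetyl-CoA by the pyruvate dehydrogenase complex or carboxylated to oxaloacetate, and citrate synthase joins both products in the first reaction of the TCA cycle. Adipocytes lack much of the enzyme that phosphorylates free glycerol, so they make the glycerol-3-phosphate backbone of triglyceride from glycolytic dihydroxyacetone phosphate, or from pyruvate by glyceroneogenesis, in which PEP carboxykinase is the committed enzyme. The pentose phosphate pathway supplies NADPH for fatty acid synthesis.

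Levels are given as CPM, that is, a gene's reads out of each 1000000 reads on listed genes, not divided by gene length. Throughout, 3 values in a row are those of replicates 1, 2 and 3. CTL libraries had 17.3, 19.6 and 22.3 CPM of Nelfb and Nelfb-/- libraries had 5.50, 3.90 and 5.55 CPM, with no overlap. Log2 fold changes below are Nelfb-/- relative to CTL, on log2(value + 1) after the values were put on a common depth of 22.3 M reads (M, 1000000), and come from limma fitted to the 16252 genes that averaged 10 reads or more. For Nelfb this was -1.99 (SE 0.22, adjusted p = 0.0050). A gene is called lower or higher where its adjusted p was 0.05 or below and it changed at least 2-fold, the limits used by the study.

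The cells are labelled as adipocytes in both groups, and adipocyte markers were measured in all 6 libraries. In the study, however, Nelfb-/- cultures of this age took up no Oil Red O, unlike CTL cultures. They also had less Plin1 and Pparg protein and more Ki67-positive nuclei, and the study concluded that their differentiation was impaired. The summed level of 10 such markers was 23139.7 to 37781 CPM in CTL and 15768 to 23831 CPM in Nelfb-/-, with overlap, and 2 of the 10 were called lower and 1 higher. Markers of other cells moved with genotype: 7 of 8 macrophage markers were called higher, with sums of 206 to 743 CPM in CTL and 2052 to 6453 CPM in Nelfb-/-. All 6 of the tested skeletal muscle markers were called higher, with sums over 8 listed genes of 8.74 to 9.38 CPM and 48.2 to 99.2 CPM, and Myod1 and Ckm were at 0 in some CTL libraries. Sums over 5 keratinocyte genes did not overlap either (2.75 to 3.17 against 6.69 to 14.6 CPM). Nor did those over 4 Schwann cell genes (46.9 to 58.1 against 90.3 to 115 CPM). The sums of 10 fibroblast or preadipocyte genes and of 6 endothelial genes overlapped. Of 9 tested fibroblast or preadipocyte genes, Dlk1 and Dpp4 were called higher and 0 lower. Dlk1 was at 53.9, 48.0 and 232 CPM in CTL libraries against 661, 1115 and 898 CPM in Nelfb-/- libraries. Calls were higher at 1 of 5 tested endothelial, 1 of 4 keratinocyte and 2 of 4 Schwann cell genes, and lower at 1 Schwann cell gene. Krt5 and Krt14 were at 0.361 CPM or below in all CTL libraries. Of 6 melanocyte markers 5 were called higher, with Tyr at 0 in all CTL libraries, although the sums (48.6 to 73.7 against 51.9 to 168 CPM) overlapped. The gene not called was Mitf, at 62.8, 72.4 and 47.2 CPM in CTL libraries against 96.3, 21.6 and 26.8 CPM in Nelfb-/- libraries. In bulk RNA, fewer cells of a type and less RNA per cell cannot be told apart. The part of these other cells in the values below was not tested, nor was that of the difference in differentiation.

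Most of the 47 enzymes had lower values in Nelfb-/- cells. The log2 fold change was negative at 41 and positive at 6, against negative values at 45.4% of all genes tested, and its median was -0.62 beside 0.068 for all genes. At 27 enzymes the groups were apart, with the highest Nelfb-/- library under the lowest CTL library, an order seen at 16.1% of all genes. The opposite order was seen at 0 enzymes and at 22.0% of all genes. All 47 passed the limit on reads. Of them 9 were called lower, beside 3.64% of all genes, and 0 were called higher, beside 7.58% of all genes. At an unadjusted p under 0.05 with limma, 24 were lower and 0 were higher, beside 2096 and 3183 of the 16252 genes. Without the limit on the fold change, 12 fell (5.83% of all genes) and 0 rose (9.96% of all genes).

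**Figure D1:**
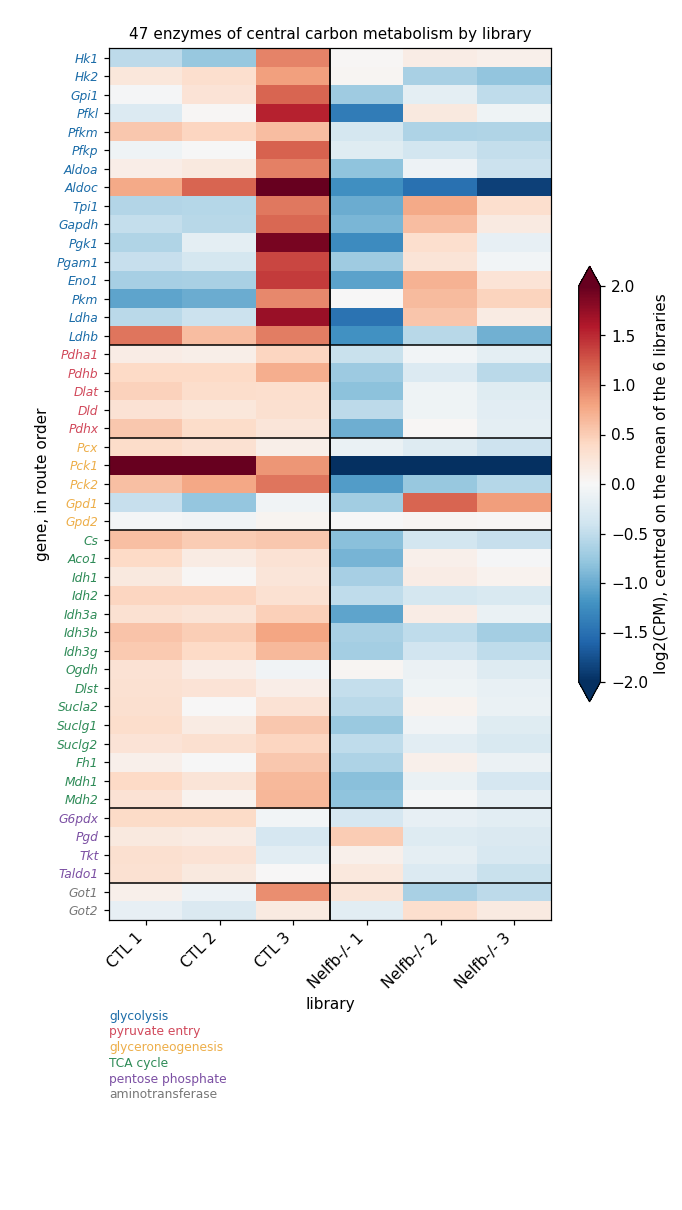
Level of each of the 47 enzymes (rows, in route order, coloured by route) in each of the 6 libraries (columns), as log2(CPM) less the gene's mean over the 6 libraries. Most rows of the TCA cycle and pyruvate entry are higher across all 3 CTL libraries, while most glycolysis rows are highest in CTL 3 and lower in CTL 1 and CTL 2.

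The 9 enzymes called lower came from glycolysis, pyruvate entry, glyceroneogenesis and the TCA cycle, and some shared a step. In glycolysis they were Pfkm, Aldoc and Ldhb, none of them the most abundant isoform of its step per kb of exon. Pdhb marked pyruvate entry, Pck1 and Pck2 marked glyceroneogenesis, and Cs, Idh3b and Idh3g the first steps of the TCA cycle. The other 3 that fell at the adjusted p but by under 2-fold, Idh2, Suclg2 and Mdh1, were all of the TCA group. With 1 library omitted at a time, Idh2 passed in 3 of 6 fits, not without CTL replicate 1 or 2 or Nelfb-/- replicate 3 (adjusted p up to 0.063). Suclg2 passed in 2 of 6, without CTL replicate 3 or Nelfb-/- replicate 1 (up to 0.098 in the others), and Mdh1 in 0 (0.054 to 0.14). No call was made in the pentose phosphate pathway or for the aminotransferases.

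**Figure D2:**
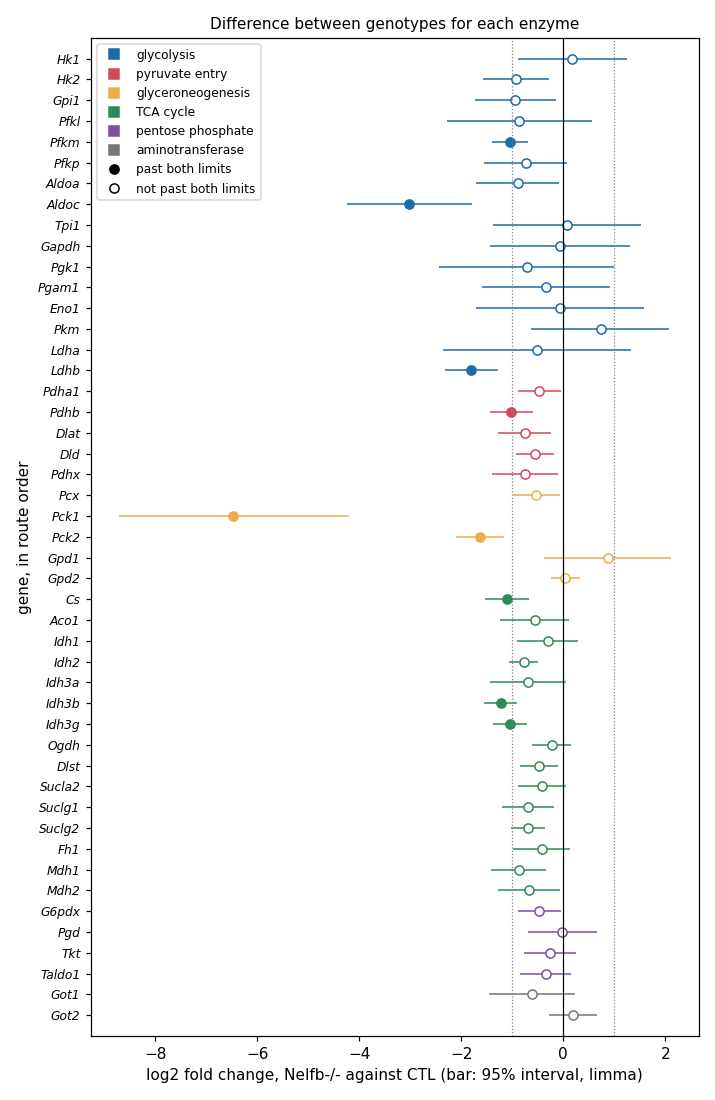
Log2 fold change of each enzyme in Nelfb-/- against CTL cells (points) with its 95% interval from limma (bars). Filled points are the 9 enzymes past both limits and the dotted lines mark 2-fold. Pck1 lies farthest from 0 at -6.47, and the widest intervals after Pck1 belong to glycolytic enzymes.

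PEP carboxykinase showed the largest difference of all the enzymes. Pck1, the cytosolic form (ENSMUSG00000027513, mm10 chromosome 2 from 173153048 to 173159273), stood at 678, 616 and 55.9 CPM in CTL. Nelfb-/- libraries stood at 2.94, 4.37 and 2.53 CPM. The groups did not overlap, although CTL replicate 3 stood far below the other CTL libraries, and the highest CTL value was 12.1 times the lowest. The log2 fold change was -6.47 (SE 0.94, adjusted p = 0.0096). With 1 library omitted at a time it ranged from -7.64 to -5.84, and omitting Nelfb-/- replicate 3 raised the adjusted p to 0.053. CTL replicate 3 also had the lowest adipocyte marker sum of the CTL libraries, 23139.7 CPM against 37781 and 34261 CPM, although Slc2a4 and Lep of that list were higher there than in the other CTL libraries. Nelfb-/- replicate 2 had a higher sum, 23831 CPM, at 4.37 CPM of Pck1. The part of adipocyte content in the level of Pck1 was not tested.

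Pck2, the mitochondrial form of the same enzyme (ENSMUSG00000040618, chromosome 14 from 55540266 to 55551242), also fell. It was at 109, 122 and 150 CPM in CTL libraries against 33.0, 42.4 and 47.9 CPM in Nelfb-/- libraries. Its log2 fold change was -1.63 (SE 0.19, adjusted p = 0.0060), and the call remained in all 6 fits that left out a library. Within a library, the log2 ratio of Pck1 to Pck2 was 2.63, 2.33 and -1.42 in CTL and -3.49, -3.28 and -4.24 in Nelfb-/- cells. The ratio does not depend on the scaling between libraries, and it did not overlap between the groups.

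The other enzymes of glyceroneogenesis differed less or not in that direction. Pcx, pyruvate carboxylase, which makes the oxaloacetate that PEP carboxykinase uses, was at 1190, 1139.8 and 999 CPM in CTL libraries against 844, 773 and 693 CPM in Nelfb-/- libraries. The groups did not overlap, but the log2 fold change of -0.53 did not pass (SE 0.19, adjusted p = 0.11). Gpd1, the cytosolic glycerol-3-phosphate dehydrogenase that reduces dihydroxyacetone phosphate to the triglyceride backbone, was at 1275, 1031 and 1669.7 CPM in CTL libraries against 1088, 3922 and 3151 CPM in Nelfb-/- libraries. Nelfb-/- replicate 1 lay within the CTL range and the other 2 lay above it, and the log2 fold change was 0.87 (SE 0.52, adjusted p = 0.30). Without Nelfb-/- replicate 1 it was 1.44 and passed at an adjusted p of 0.035. Gpd2, the mitochondrial enzyme that oxidises glycerol-3-phosphate, had the narrowest spread of all 47, between 30.8 and 33.4 CPM over the 6 libraries, with a 95% interval of its log2 fold change from -0.25 to 0.32. Per kb of exon, the mean CTL and Nelfb-/- levels were 447 and 919 CPM for Gpd1 and 131 and 0.957 CPM for Pck1.

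**Figure D3:**
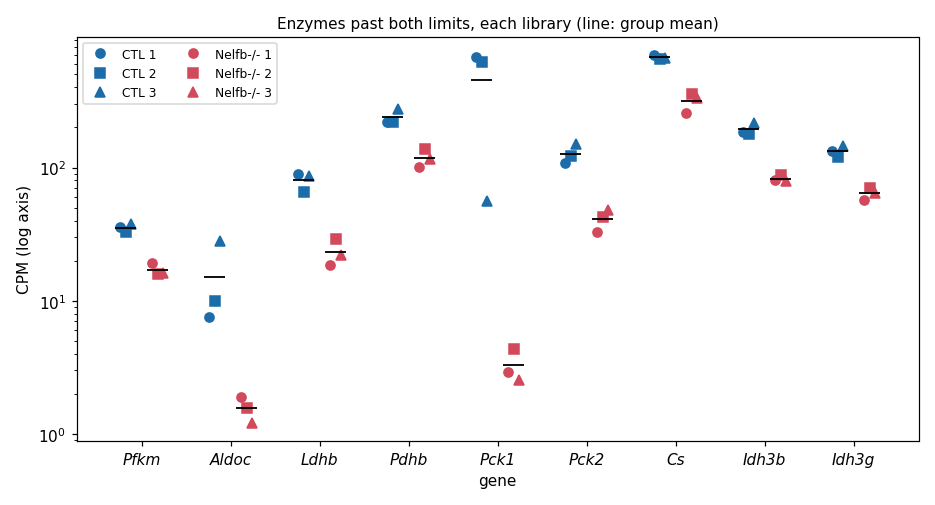
CPM in each library (log axis) of the 9 enzymes past both limits, with CTL in blue, Nelfb-/- in red and a line at each group's mean. The groups are apart at every gene, and CTL 3 lies below the other CTL libraries at Pck1 and above them at Aldoc.

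The region in front of the start of 4 of the called enzymes is shown as DNA. Whether these genes share regulation was not tested. Each sequence is the 250 bases before the start of the RefSeq transcript on GRCm38.p6, read on the strand of the gene. For Pck1 (chr2:173152823-173153072, plus strand), Pck2 (chr14:55540016-55540265, plus strand), Ldhb (chr6:142507958-142508207, minus strand) and Cs (chr10:128337477-128337726, plus strand), capitals mark matches to the GC box GGGCGG or the CCAAT box CCAAT on either strand.
Pck1: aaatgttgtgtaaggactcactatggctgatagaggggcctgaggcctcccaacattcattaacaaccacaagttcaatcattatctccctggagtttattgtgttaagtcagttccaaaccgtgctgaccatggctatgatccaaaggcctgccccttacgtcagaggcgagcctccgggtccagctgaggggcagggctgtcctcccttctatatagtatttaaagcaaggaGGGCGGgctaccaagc
Pck2: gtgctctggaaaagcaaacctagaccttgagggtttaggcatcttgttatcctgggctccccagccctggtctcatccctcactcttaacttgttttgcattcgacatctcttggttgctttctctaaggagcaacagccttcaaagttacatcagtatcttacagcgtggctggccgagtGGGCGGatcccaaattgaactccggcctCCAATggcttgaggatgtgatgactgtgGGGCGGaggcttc
Ldhb: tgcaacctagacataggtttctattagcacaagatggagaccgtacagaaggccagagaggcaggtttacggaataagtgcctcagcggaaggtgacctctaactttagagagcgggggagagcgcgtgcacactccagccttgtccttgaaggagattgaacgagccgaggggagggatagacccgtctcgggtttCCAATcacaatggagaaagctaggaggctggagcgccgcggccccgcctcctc
Cs: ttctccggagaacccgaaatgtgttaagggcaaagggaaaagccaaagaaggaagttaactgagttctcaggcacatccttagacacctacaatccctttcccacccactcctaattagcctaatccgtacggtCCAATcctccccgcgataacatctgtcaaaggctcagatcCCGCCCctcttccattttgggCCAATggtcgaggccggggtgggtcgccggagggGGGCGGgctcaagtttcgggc

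The GC box GGGCGG, the letters bound by Sp1-type factors, stood in at least 1 promoter of 32 of the 45 enzymes with a RefSeq promoter. Gpd1 and Idh3a had no entry in that table. Counted per promoter, 36 of 65 member promoters (55.4%) held it, beside 32.7% of all 32851 promoters of the same length. The CCAAT box was in 27 of the 65 (41.5%), beside 33.8% of all promoters. An E box with the letters CACGTG was in 6 (9.23%), beside 6.02% of all promoters. The TATA box was searched as TATAAA and was in 1 (1.54%), beside 12.4% of all promoters. Of the 9 enzymes called lower, 5 held a GC box, 5 a CCAAT box, 1 the E box and 0 this TATA box. Counted by gene in the same way, 71.1% of the 45 members held a GC box and 48.9% a CCAAT box. The shares of all promoters above are per promoter, not per gene. Pfkm and Idh3g, which were called but are not shown, held neither a GC box nor a CCAAT box. Both strands were searched, a CCAAT box on the other strand can share 2 bases with a GC box, and a match describes only the sequence.

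The TCA route, taken here with the cytosolic counterparts Aco1, Idh1 and Mdh1, had negative log2 fold changes at all 15 enzymes under every scaling tried, with a median of -0.69. At 11 of the 15 the groups did not overlap (16.1% of all genes), 6 fell at the adjusted p (5.83%) and 3 of these were called (3.64%). Cs, citrate synthase (ENSMUSG00000005683, chromosome 10 from 128337734 to 128362479), was at 697, 656 and 668 CPM in CTL libraries against 258, 357 and 332 CPM in Nelfb-/- libraries. Every Nelfb-/- library was far below the narrow CTL range, and the log2 fold change was -1.11 (SE 0.18, adjusted p = 0.012). The call was lost in 4 of 6 fits that left out a library, namely CTL replicate 1 or 2 or Nelfb-/- replicate 1 or 3, with values from -1.2 to -0.97.

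The NAD-dependent isocitrate dehydrogenase is built of 3 kinds of subunit, encoded by Idh3a, Idh3b and Idh3g. Idh3b (ENSMUSG00000027406, chromosome 2 from 130279309 to 130284547) was at 186, 177 and 217 CPM in CTL libraries against 80.1, 88.2 and 78.8 CPM in Nelfb-/- libraries. It had a log2 fold change of -1.23 (SE 0.14, adjusted p = 0.0053), called in all 6 fits that left out a library. Idh3b overlaps Nop56 on the opposite strand, whose mean was 50.4% of its own, and whether reads were counted by strand was not stated. Idh3g (ENSMUSG00000002010, chromosome X from 73778963 to 73786897) was at 132, 120.4 and 144 CPM in CTL libraries against 57.1, 70.0 and 64.7 CPM in Nelfb-/- libraries. At a log2 fold change of -1.05 (SE 0.14, adjusted p = 0.0079), the call was lost without CTL replicate 3 or Nelfb-/- replicate 1 or 3, with values from -1.12 to -0.97 and adjusted p up to 0.052 over the 6 fits. The catalytic subunit gene Idh3a (ENSMUSG00000032279) had the highest level per kb of the 3, at 344, 333 and 385 CPM in CTL libraries against 134, 308 and 253 CPM in Nelfb-/- libraries. Its groups did not overlap, but Nelfb-/- replicate 1 stood well below the other Nelfb-/- libraries, and the log2 fold change of -0.69 did not pass (SE 0.31, adjusted p = 0.18).

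The NADP-dependent isocitrate dehydrogenases, which yield NADPH, are encoded by 1 gene for each compartment. Idh2, in mitochondria, was at 121, 121 and 111 CPM in CTL libraries against 63.0, 70.4 and 72.7 CPM in Nelfb-/- libraries, and fell by 0.78 on the log2 scale (SE 0.12, adjusted p = 0.012), less than 2-fold. Idh1, in the cytosol, was at 439, 388 and 451 CPM in CTL libraries against 241, 425 and 401 CPM in Nelfb-/- libraries. The Idh1 groups overlapped, with a log2 fold change of -0.30 (SE 0.25, adjusted p = 0.45). The log2 ratio of Idh2 to Idh1 was -2.02 to -1.68 in CTL and -2.60 to -1.93 in Nelfb-/- cells, and it overlapped as well, so a difference between the 2 genes was not shown.

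In the second arc of the cycle the differences were under 2-fold. Mdh1, the cytosolic malate dehydrogenase (ENSMUSG00000020321), was at 406, 365 and 483 CPM in CTL libraries against 171, 279 and 244 CPM in Nelfb-/- libraries, with a log2 fold change of -0.87 (SE 0.23, adjusted p = 0.047). It did not pass in any of the 6 fits that left out a library or without the abundance trend (0.063). Its mitochondrial counterpart Mdh2, the enzyme of the cycle itself, had a log2 fold change of -0.68 without overlap (SE 0.26, adjusted p = 0.12). The ratio of Mdh2 to Mdh1 was narrow, from -0.75 to -0.56 on the log2 scale in CTL and from -0.53 to -0.42 in Nelfb-/- cells, so it was 0.20 higher with no overlap. Suclg2, the GTP-forming beta subunit of succinyl-CoA ligase, fell by 0.69 (SE 0.14, adjusted p = 0.023), from 39.5, 40.4 and 44.0 CPM to 22.8, 28 and 26.4 CPM. Sucla2, the ATP-forming beta subunit and the most abundant of the 3 ligase genes per kb, was at 144, 116 and 142 CPM in CTL libraries against 79.2, 121 and 105 CPM in Nelfb-/- libraries, with overlap at a log2 fold change of -0.41 (SE 0.19, adjusted p = 0.19). Suclg1, the shared alpha subunit, had a log2 fold change of -0.70 without overlap (adjusted p = 0.071).

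The remaining TCA enzymes did not pass. Ogdh, the first component of the oxoglutarate dehydrogenase complex, was at 376, 339.9 and 294 CPM in CTL libraries against 317, 284 and 259 CPM in Nelfb-/- libraries, and its log2 fold change of -0.23 was the smallest of the route (SE 0.16, adjusted p = 0.38). Its partner Dlst was at -0.48 without overlap (adjusted p = 0.088). Fh1, fumarase, was at 72.2, 66.7 and 97.6 CPM in CTL libraries against 44.0, 71.9 and 61.9 CPM in Nelfb-/- libraries (log2 fold change -0.42, SE 0.24, adjusted p = 0.27). Aco1, the cytosolic aconitase that also serves as an iron-responsive RNA-binding protein, was at 195, 166 and 181 CPM in CTL libraries against 78.2, 159 and 146 CPM in Nelfb-/- libraries, with no overlap (log2 fold change -0.56, SE 0.28, adjusted p = 0.22). Nelfb-/- replicate 1 was the lowest of all 6 libraries at 13 of the 15 TCA enzymes, beside 3244 of the 16252 genes tested.

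At all 5 genes of the pyruvate dehydrogenase complex the groups were apart with Nelfb-/- lower (16.1% of all genes), and the median of their log2 fold changes was -0.76. Pdhb, the beta subunit of the first component (ENSMUSG00000021748, chromosome 14 from 8165996 to 8173025), was the 1 gene called (3.64% of all genes), at 219.7, 219.8 and 274 CPM in CTL libraries against 101, 138 and 115 CPM in Nelfb-/- libraries. Its log2 fold change of -1.02 (SE 0.17, adjusted p = 0.014) stood just past 2-fold, and the call remained only without Nelfb-/- replicate 2, with a range of -1.14 to -0.91 over the 6 fits. Pdha1, the alpha subunit and the most abundant gene of the complex per kb, was at 400.2, 392 and 488 CPM in CTL libraries against 264, 349 and 315 CPM in Nelfb-/- libraries, and its log2 fold change of -0.47 did not pass (SE 0.18, adjusted p = 0.13). Dlat, the acetyltransferase core, was at -0.76 (adjusted p = 0.060). Dld, the dehydrogenase shared with the oxoglutarate complex, was at -0.56 (adjusted p = 0.059), and Pdhx, which anchors it, at -0.76 (adjusted p = 0.11).

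Glycolysis held both large decreases and, of all routes, the widest median spread within a genotype. Of its 16 enzymes 3 were called lower (3.64% of all genes) and 7 had groups apart with Nelfb-/- lower (16.1% of all genes). The median of their log2 fold changes was -0.73. The median SD between libraries of a genotype was 0.77 on the log2 scale, beside 0.25 for the TCA enzymes and 0.33 for all genes tested. The highest CTL library was a median of 3.32 times the lowest for these 16 and 1.2 times for the TCA enzymes. CTL replicate 3 was the highest CTL library at 15 of the 16, beside 7785 of the 16252 genes tested. It was the highest of all 6 libraries at 15, beside 3397 of the 16252 genes.

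**Figure D4:**
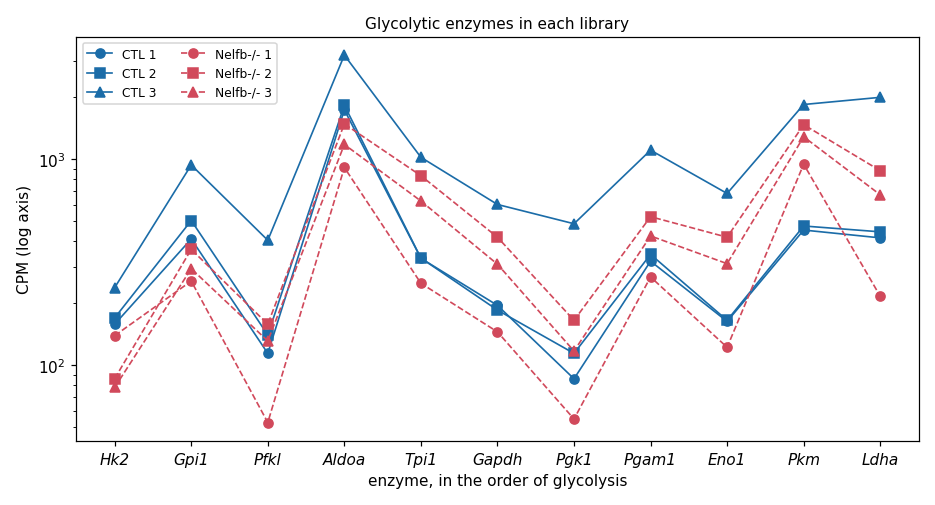
CPM in each library (log axis) of the most abundant enzyme per length at each step of glycolysis, in pathway order, with Hk2 first and Ldha last; lines join the values of a library. CTL 3 lies above all other libraries at every step drawn, and from Tpi1 to Ldha the CTL 1 and CTL 2 lines run below those of Nelfb-/- 2 and Nelfb-/- 3.

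In the upper steps, hexokinase to aldolase, Nelfb-/- values were mostly below CTL. Hk2, the insulin-responsive hexokinase, was at 158, 169.6 and 238 CPM in CTL libraries against 139, 86.0 and 77.9 CPM in Nelfb-/- libraries. The groups did not overlap, and the log2 fold change of -0.92 missed the limits (SE 0.27, adjusted p = 0.066) but was -1.18 with an adjusted p of 0.022 without Nelfb-/- replicate 1. Hk1, the other hexokinase, was at 52.5, 44.4 and 149.9 CPM in CTL libraries against 76.6, 83.1 and 80.4 CPM in Nelfb-/- libraries (log2 fold change 0.18, adjusted p = 0.81). Gpi1, glucose-6-phosphate isomerase, was at 410, 504 and 938 CPM in CTL libraries against 256, 365 and 294 CPM in Nelfb-/- libraries, apart at a log2 fold change of -0.94 (SE 0.33, adjusted p = 0.11). The highest value of both genes was that of CTL replicate 3.

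The 3 phosphofructokinase genes encode subunits of the enzyme that commits sugar to glycolysis. Pfkm, the muscle-type subunit (ENSMUSG00000033065, chromosome 15 from 98092589 to 98132451), was at 35.5, 32.8 and 37.5 CPM in CTL libraries against 19.1, 15.9 and 16.2 CPM in Nelfb-/- libraries. Its log2 fold change was -1.05 (SE 0.14, adjusted p = 0.0083), with the call lost without Nelfb-/- replicate 2 or 3. The summed muscle markers were higher in Nelfb-/- cells (48.2 to 99.2 against 8.74 to 9.38 CPM), and their part in Pfkm was not tested. Pfkm overlaps Senp1 on the opposite strand, whose mean CPM was 105% of its own. Reads in the stretch they share cannot be told apart if strand was not used. Pfkl, the liver-type subunit and the most abundant per kb, was at 114, 140.1 and 404 CPM in CTL libraries against 52.6, 158 and 131 CPM in Nelfb-/- libraries, with overlap (log2 fold change -0.86, SE 0.59, adjusted p = 0.37). Pfkp, the platelet-type subunit, had groups apart at -0.73 (adjusted p = 0.19) and overlaps Pitrm1, whose mean was 147% of its own.

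Aldolase transcripts were almost wholly those of Aldoa. Per kb of exon Aldoa had 609 CPM in CTL, the highest of all 47 enzymes there, and Aldoc 4.66 CPM. Aldoc (ENSMUSG00000017390, chromosome 11 from 78322968 to 78327781), better known from brain, was at 7.49, 9.89 and 28.3 CPM in CTL libraries against 1.90, 1.57 and 1.22 CPM in Nelfb-/- libraries. Its log2 fold change of -3.02 was the second largest among the enzymes (SE 0.51, adjusted p = 0.014), lost without Nelfb-/- replicate 3 at an adjusted p of 0.067. Aldoa (chromosome 7 from 126795234 to 126809108) was at 1738, 1829.7 and 3205 CPM in CTL libraries against 912, 1485 and 1179.7 CPM in Nelfb-/- libraries, without overlap (log2 fold change -0.89, SE 0.34, adjusted p = 0.13). The log2 ratio of Aldoc to Aldoa was -7.86, -7.53 and -6.83 in CTL and -8.91, -9.88 and -9.91 in Nelfb-/- cells, so Aldoc was lower also relative to Aldoa in every Nelfb-/- library.

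From triose-phosphate isomerase to lactate dehydrogenase A the groups overlapped at all 7 steps: Tpi1, Gapdh, Pgk1, Pgam1, Eno1, Pkm and Ldha. This stretch was marked out after its values were seen. Its median log2 fold change was -0.072, with a median SD within a genotype of 0.92 and a median ratio of 4.07 between the highest and lowest CTL libraries. Gapdh, the dehydrogenase that the study used as the reference gene of its RT-qPCR, was at 195, 185 and 603 CPM in CTL libraries against 145, 418 and 309 CPM in Nelfb-/- libraries. Its log2 fold change was -0.072 (SE 0.57, 95% interval -1.44 to 1.30, adjusted p = 0.95), from -0.40 to 0.48 when a library was left out. With all values scaled to Gapdh, the calls over all genes went from 1824 to 551 and those among the enzymes from 9 to 2, which were Aldoc and Pck1. The median log2 fold change of the enzymes was then -0.54, beside -0.62 without this scaling.

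A similar order of libraries was seen at Tpi1, Pgk1, Pgam1 and Eno1. Tpi1, which interconverts the 2 triose phosphates, was at 330.2, 331 and 1022 CPM in CTL libraries against 249.7, 832 and 627 CPM in Nelfb-/- libraries (log2 fold change 0.074, SE 0.61, adjusted p = 0.95). Pgk1, which makes the first ATP of the pathway, was at 85.8, 114 and 486 CPM in CTL libraries against 54.7, 165 and 117 CPM in Nelfb-/- libraries (log2 fold change -0.72, SE 0.72, adjusted p = 0.53). At both genes CTL replicate 3 was highest and Nelfb-/- replicate 1 lowest. Pgam1, phosphoglycerate mutase, was at 319.7, 345 and 1107 CPM in CTL libraries against 268, 526 and 424 CPM in Nelfb-/- libraries (log2 fold change -0.34, SE 0.52, adjusted p = 0.69). Eno1, enolase, was at 163, 165 and 682 CPM in CTL libraries against 122, 418 and 311 CPM in Nelfb-/- libraries (log2 fold change -0.069, SE 0.69, adjusted p = 0.96). Summed proliferation markers were also high in CTL replicate 3 and Nelfb-/- replicates 2 and 3, with 72.0, 69.9 and 356 CPM for CTL against 75.1, 398 and 350 CPM for Nelfb-/- libraries, but the highest sum was that of Nelfb-/- replicate 2 and the lowest that of CTL replicate 2. Their part in these values was not tested.

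At the end of glycolysis Ldhb was called, and Pkm and Ldha were not. Pkm, pyruvate kinase, was at 453, 474 and 1845 CPM in CTL libraries against 946, 1472 and 1286 CPM in Nelfb-/- libraries, so that all Nelfb-/- libraries lay above 2 CTL libraries and below the other. The fitted log2 fold change was 0.73 (SE 0.57, adjusted p = 0.42), and omitting CTL replicate 3 brought it to 1.39, past both limits (adjusted p = 0.017). Macrophages, whose summed markers were higher in all Nelfb-/- libraries, also express Pkm, and their part in it was not tested. Ldha, the lactate dehydrogenase subunit of glycolytic tissues, was at 415, 444 and 1999 CPM in CTL libraries against 216, 880.2 and 672 CPM in Nelfb-/- libraries (log2 fold change -0.51, SE 0.77, adjusted p = 0.69). Ldhb, the heart-type subunit (ENSMUSG00000030246, chromosome 6 from 142490249 to 142507957), was at 88.9, 65.3 and 86.5 CPM in CTL libraries against 18.4, 28.9 and 21.9 CPM in Nelfb-/- libraries. It fell by 1.81 on the log2 scale (SE 0.21, adjusted p = 0.0059), and the call remained in all 6 fits that left out a library. The log2 ratio of Ldhb to Ldha nevertheless overlapped, at -2.22, -2.76 and -4.53 in CTL and -3.55, -4.93 and -4.94 in Nelfb-/- cells, since CTL replicate 3 lay among the Nelfb-/- values.

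Near-identical gene copies bear on these values. At 95% identity over at least 300 bases, 12 of the 47 enzymes had a copy elsewhere in the annotation that was also a row of the table, and the counting of reads that match several places was not given in the sources used here. Gapdh had 47 such rows, and its own row held 30.6% of the summed value. The own rows of Pgk1 and Eno1 held 26.1% and 33.0%, so the printed levels of these 3 genes are uncertain. With the copies added, Gapdh was at 535, 555 and 2074 CPM in CTL libraries against 469, 1382 and 1037 CPM in Nelfb-/- libraries (log2 fold change 0.042). The called members with copies kept similar values, -1.84 for Ldhb (adjusted p = 0.0053) and -1.03 for Pdhb (adjusted p = 0.016), and no call among the 12 changed.

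**Figure D5:**
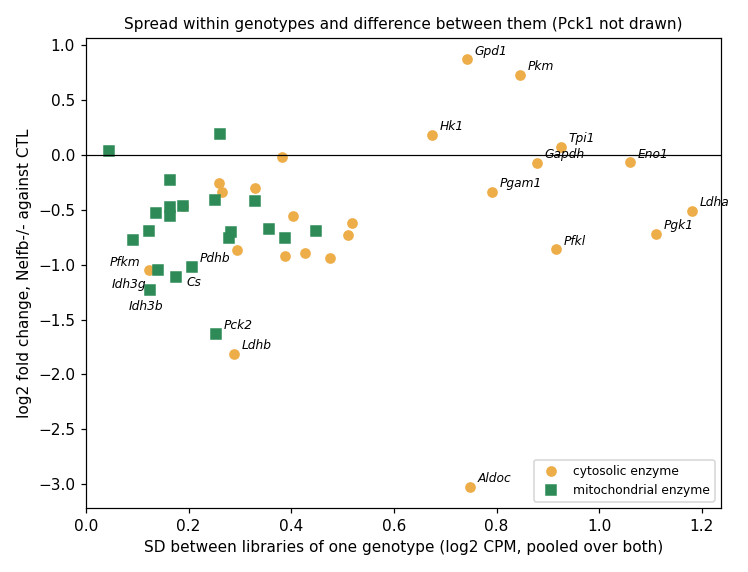
Log2 fold change of each enzyme (y axis, Nelfb-/- against CTL) against the SD of log2 CPM between libraries of a genotype (x axis, pooled over both), with cytosolic enzymes as circles and mitochondrial ones as squares; Pck1, at -6.47, is not drawn. Mitochondrial enzymes crowd at low SD and negative values (median SD 0.19), and the enzymes from Tpi1 to Ldha lie at high SD between -0.72 and 0.73.

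By compartment, the 21 mitochondrial enzymes had a median log2 fold change of -0.69 and the 26 cytosolic enzymes one of -0.54. The difference between compartments was not tested. Of the mitochondrial enzymes 16 had groups apart and 5 were called lower, and of the cytosolic ones 11 and 4, beside 16.1% and 3.64% of all genes. The median SD within a genotype was 0.19 for mitochondrial and 0.51 for cytosolic enzymes, and the highest CTL library was a median of 1.23 and 2.17 times the lowest.

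The pentose phosphate pathway gave no call. Its 4 enzymes had negative log2 fold changes with a median of -0.30. G6pdx, glucose-6-phosphate dehydrogenase, which makes the first NADPH, was at 390.5, 388 and 287 CPM in CTL libraries against 238, 266 and 259 CPM in Nelfb-/- libraries. The groups were apart at a log2 fold change of -0.47 (SE 0.17, adjusted p = 0.12), and G6pdx overlaps Ikbkg, whose mean was 27.3% of its own. Pgd, which makes the second NADPH, was at 605, 593 and 419.8 CPM in CTL libraries against 756, 442 and 435 CPM in Nelfb-/- libraries (log2 fold change -0.017, 95% interval -0.70 to 0.66), and its sign changed with the scaling. Taldo1, transaldolase, was at 325, 304 and 265 CPM in CTL libraries against 307, 219 and 193 CPM in Nelfb-/- libraries (log2 fold change -0.34, SE 0.21, adjusted p = 0.32). Tkt, transketolase, was at -0.26 (adjusted p = 0.45). In contrast to glycolysis, CTL replicate 3 was the highest CTL library at 0 of these 4 genes, beside 7785 of the 16252 genes tested. This contrast was not tested.

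The aspartate aminotransferases, which move aspartate and oxaloacetate carbon between cytosol and mitochondria, overlapped between the groups. Got2, the mitochondrial form, was at 95.5, 87.5 and 121 CPM in CTL libraries against 92.7, 135 and 121 CPM in Nelfb-/- libraries (log2 fold change 0.19, SE 0.20, adjusted p = 0.55). Got1, the cytosolic form, was at 29.6, 25.6 and 52.4 CPM in CTL libraries against 32.9, 17.5 and 19.2 CPM in Nelfb-/- libraries (log2 fold change -0.62, SE 0.35, adjusted p = 0.28).

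Of the 10 isoform and compartment pairs compared within libraries, 3 had groups apart: Aldoc to Aldoa and Pck1 to Pck2 were lower and Mdh2 to Mdh1 higher in Nelfb-/- cells. The other 7 overlapped. No share for ratios of other genes was computed, and single genes were apart with Nelfb-/- lower at 16.1% and higher at 22.0%. The log2 ratio of Hk2 to Hk1 was 1.59, 1.93 and 0.66 in CTL and 0.86, 0.05 and -0.05 in Nelfb-/- cells, so only Nelfb-/- replicate 1 reached the CTL range.

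Other genes of the same pathways moved in both directions. Of 64 listed, 52 were in the table and tested, and the median of their log2 fold changes was -0.28. Of these, 5 were called lower (3.64% of all genes) and 5 higher (7.58% of all genes), and without the fold limit 7 fell (5.83% of all genes) and 7 rose (9.96% of all genes). Those called lower included Slc2a4, Pfkfb3, Ldhd and Gpt2. Slc2a4, the insulin-responsive glucose transporter, was at 112, 99.5 and 155 CPM in CTL libraries against 22.6, 34.1 and 33.3 CPM in Nelfb-/- libraries (log2 fold change -2.02, SE 0.24, adjusted p = 0.0057). Pfkfb3, which makes the allosteric activator of phosphofructokinase, was at 539, 479 and 472 CPM in CTL libraries against 233, 251 and 209 CPM in Nelfb-/- libraries (log2 fold change -1.11, adjusted p = 0.0081). Neither gene had overlapping groups.

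Ldhd, the D-lactate dehydrogenase, had a log2 fold change of -2.34 (adjusted p = 0.013), and Gpt2, the mitochondrial alanine aminotransferase, one of -1.06 (adjusted p = 0.036). With 1 library omitted at a time, the call of Slc2a4 remained in 6 of 6 fits, that of Pfkfb3 in 5, that of Ldhd in 4 and that of Gpt2 in 2, with CTL replicate 1 or 2 or Nelfb-/- replicate 2 or 3 ending the last. Of these 4 calls, all but that of Slc2a4 were lost without Nelfb-/- replicate 3, and that of Ldhd also without CTL replicate 2. Passing the adjusted p but not the fold limit were the succinate dehydrogenase subunits Sdha, at -0.85 (adjusted p = 0.013), and Sdhd, at -1.0 (adjusted p = 0.019). On the higher side these were Pgm2, a phosphopentomutase, at 0.78 (adjusted p = 0.016), and Me2, a mitochondrial malic enzyme, at 0.77 (adjusted p = 0.022). Each of these 4 genes passed in 2 of 6 fits that left out a library, with adjusted p up to 0.081, 0.085, 0.092 and 0.10.

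The 5 called higher were Acly, Slc25a13, Bpgm, Pfkfb4 and Gpd1l. Acly, ATP citrate lyase, which cuts exported citrate to cytosolic acetyl-CoA for fatty acid synthesis, was at 131, 125 and 436 CPM in CTL libraries against 529, 1914 and 1642 CPM in Nelfb-/- libraries (log2 fold change 2.62, SE 0.66, adjusted p = 0.044). Omitting CTL replicate 1 or 2 or Nelfb-/- replicate 2 or 3 ended its call, and equally those of Bpgm and Slc25a13. The call of Pfkfb4 was lost without CTL replicate 1 or 2 or Nelfb-/- replicate 3, and that of Gpd1l without CTL replicate 3 or Nelfb-/- replicate 2 or 3. Pfkfb4, a sister enzyme of Pfkfb3, was at 7.22, 7.89 and 11.3 CPM in CTL libraries against 27.1, 20.8 and 20.4 CPM in Nelfb-/- libraries (log2 fold change 1.38, adjusted p = 0.013), so the 2 genes moved in opposite directions. Gpd1l, a relative of Gpd1, was at 31.1, 31.4 and 23.9 CPM in CTL libraries against 58.7, 59.5 and 55.2 CPM in Nelfb-/- libraries (log2 fold change 1.01, adjusted p = 0.010). Bpgm, which makes 2,3-bisphosphoglycerate, had a log2 fold change of 1.54 (adjusted p = 0.031), and Slc25a13, the aspartate-glutamate carrier, one of 1.80 (adjusted p = 0.033) at group means of 0.928 and 3.17 CPM.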

How the data were processed

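The CPM values deposited by the authors come from libraries made from extracted total RNA and sequenced on an Illumina NovaSeq. The study's methods name mm10 and DESeq2 for alignment and ANOVA in Partek, while the submitters' processing notes list STAR 2.7 and Partek 9.0.20.0202. Counting, strand and the treatment of multiply matching reads are not given in the sources used here. With an offset of 0.0001 CPM removed, the values of a library added up to 1000000, and steps of the low values gave depths of 17.2 to 29.4 M reads (M, 1000000), with 3 reads worth 0.102 to 0.175 CPM. Of values up to 20 reads, 68.7 to 71.1% were whole within 0.01 reads, so no count test was run.

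CPM values times the common depth were filtered at a mean of 10 reads (0.448 CPM), taken as log2(value + 1) and fitted with limma 3.58.1 (R 4.3.3) with an abundance trend. Benjamini-Hochberg adjustment covered all 16252 genes. An exact permutation test of 3 against 3 libraries cannot go below p = 0.1. On this scale fold changes of genes near the floor are understated. The script was tested on simulated data.

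All 47 members could be named; full values went to those past both limits, to Gapdh and to the member with the highest mean CPM per kb at each step, and of other pathway genes those past both limits are named, apart from 1 that is not reported here. Idh2, Suclg2, Pgd, Sdha, Sdhd, Pgm2, Me2, Got1, Hk1 and the overlapping genes Senp1, Nop56, Pitrm1 and Ikbkg were given values beyond that, chosen after these were seen. So were the markers Mitf, Dlk1, Krt5 and Krt14. Members and lists were chosen with earlier results of these data known. Positions are those of the authors' table, matched to GENCODE vM21 for 17520 genes, of which 99.0% had the same position. Gene copies were found with BLAST 2.17.0. Alternatives were other pseudocounts, filters and scalings, no trend, a replicate block, each library left out and, chosen after the data were seen, copies added.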

Additional observations from a re-analysis of the deposited data

How the results depend on the processing

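The median of the 47 enzymes kept its sign under all alternatives run. Scaled to Gapdh, all genes gave 551 calls in place of 1824, the enzymes 2 called lower in place of 9 and 2 at the adjusted p alone in place of 12, and the other pathway genes 1 call in place of 10; this scaling divides by a gene that varied 3.25-fold within CTL. With 1 library omitted at a time, all genes gave 426 to 2479 calls, lowest without Nelfb-/- replicate 3. The enzymes called lower then numbered 3 to 8, those called higher 0 to 1 (Pkm or Gpd1) and those at the adjusted p alone 3 to 14, and calls among the other pathway genes 1 to 11; the lowest counts came without Nelfb-/- replicate 3. Quantile normalization moved the median over all genes from 0.068 to -0.068 and the share of calls that were lower from 32.5% to 45.1%, and Gapdh scaling moved that share to 15.8%. Signs near 0 changed: Gapdh with copies added to 0.042, Eno1 scaled to Gapdh to 0.0028, Gpd2 to -0.033 by median-of-ratios and -0.071 by quantile scaling, and Pgd to 0.0032 by quantile and 0.055 by Gapdh scaling. With a library left out, log2 fold changes crossed 0 for Hk1 (-0.15 to 0.73), Tpi1 (-0.28 to 0.62), Gapdh (-0.40 to 0.48), Pgk1 (-1.21 to 0.042), Pgam1 (-0.66 to 0.24), Eno1 (-0.44 to 0.62), Ldha (-0.91 to 0.23) and Pgd (-0.28 to 0.12). The cause of these changes was not tested. Deviations of same-numbered libraries from their group means correlated at 0.515, -0.395 and 0.518, and CTL replicates 2 and 3 correlated best with another number (0.48 with Nelfb-/- replicate 1 and 0.536 with replicate 2), so the numbers were not taken to pair the libraries; the replicate block gave 2175 calls over all genes and put Mdh1 at an adjusted p of 0.053. Of the log2 fold changes recomputed for single genes, 820 kept direction and side of the threshold, 64 no longer passed, 3 newly passed and 24 changed sign. The effect of depth was not tested; all 47 enzymes passed the limit on reads, and the lowest, Aldoc, was at 1.22 CPM in 1 Nelfb-/- library, where 3 reads are worth 0.122 CPM.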
